A study of Homo sapiens with 3 samples.

Results

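The human microRNAs (miRNAs) numbered 1000 and above were examined in small RNA libraries of HCCLM3, a metastatic human hepatocellular carcinoma (HCC) cell line. The members were chosen by name and by measured values: every name of the form hsa-miR-N with N of at least 1000, without the hsa-miR-1307 names, whose counts summed to at least 30 over the 3 libraries. This gave 70 members of the 1921 names listed. The tables held 1068 names in this number range, of which 396 were detected in any library and 672 were at 0 in every library. The remaining 326 detected names lay below the minimum.

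One library was made from each of 3 cultured strains. The parent was labelled with low metastasis, although the methods of the study call its parental HCCLM3 derivative highly metastatic. Subclone1 was labelled with a raised metastatic ability towards the lung and subclone2 with metastasis to both the lung and the celiac lymph node. The study grew single-cell clones from lung and lymph node metastases of nude mouse xenografts, so each subclone may stand for 1 clone only, and the labels do not say which clone it was. All strains were grown in DMEM and carry no other labelled treatment. With 1 library per group, no ratio below has a replicate check and no p-value is given.

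A miRNA is cut from a hairpin precursor, first by the Microprocessor (DROSHA with DGCR8) and then by DICER1, and 1 arm (5p or 3p) is usually kept in an Argonaute protein. It recognises target mRNAs mainly through its seed, bases 2 to 8. Numbers were given in the order of registration. Most high numbers therefore come from deep sequencing, and many stand for scarce miRNAs, introns that fold into hairpins (mirtrons), repeat-derived hairpins, or names that were later traced to fragments of other RNA classes.

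The sequences on which the results turn are given here from RefSeq (GRCh38.p14), 5′ to 3′, with the seed in capitals. RefSeq held a mature sequence for 58 of the 70 members. The first 6 are the pairs with a shared seed, shown because reads may not be told apart between them.
hsa-miR-1268a: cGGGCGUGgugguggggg
hsa-miR-1268b: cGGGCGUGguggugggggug
hsa-miR-1269a: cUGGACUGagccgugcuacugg
hsa-miR-1269b: cUGGACUGagccaugcuacugg
hsa-miR-1255a: aGGAUGAGcaaagaaaguagauu
hsa-miR-1255b-5p: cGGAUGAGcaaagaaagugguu

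The next set holds members that stood above the parent in at least 1 subclone by the rule for calls given with the comparisons.
hsa-miR-2682-5p: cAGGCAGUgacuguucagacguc
hsa-miR-4454: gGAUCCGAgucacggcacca
hsa-miR-4488: aGGGGGCGggcuccggcg
hsa-miR-1228-5p: gUGGGCGGgggcaggugugug
hsa-miR-1260b: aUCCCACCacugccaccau

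The last set holds members that stood below the parent in at least 1 subclone by the same rule.
hsa-miR-4521: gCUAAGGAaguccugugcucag
hsa-miR-3171: aGAUGUAUggaaucuguauauauc
hsa-miR-1262: aUGGGUGAauuuguagaaggau
hsa-miR-4436b-3p: cAGGGCAGgaagaaguggacaa
hsa-miR-3144-5p: aGGGGACCaaagagauauauag
hsa-miR-3179: aGAAGGGGugaaauuuaaacgu
hsa-miR-2355-3p: aUUGUCCUugcuguuuggagau
hsa-miR-3140-3p: aGCUUUUGggaauucagguagu

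The whole of hsa-miR-1268a (18 bases) lies within hsa-miR-1268b. hsa-miR-1269a and hsa-miR-1269b differ by 1 substitution, G13A, counted from the 5′ end of hsa-miR-1269a. hsa-miR-1255a and hsa-miR-1255b-5p share 17 consecutive bases. The single levels of these 6 members are therefore uncertain. None of the 58 members with a sequence shared its seed with any of the 20 most abundant miRNAs of the tables. The seed of hsa-miR-2682-5p is that of hsa-miR-34b-5p and hsa-miR-449c-5p, of the wider miR-34 family. The miR-34 genes of that family are known for their control by p53 and their restraint of the cell cycle. hsa-miR-34a-5p does not have this seed, and what hsa-miR-2682-5p does was not tested.

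The libraries held 7902438 counts (parent), 3570864 (subclone1) and 4568075 (subclone2). Levels are given as CPM, that is scaled so that each library sums to 1e+06, with exact (Clopper-Pearson) 95% intervals. These intervals cover counting error only, since the tables carry no molecular identifiers. The limit for an undetected miRNA (3 counts of the total) was 0.380, 0.840 and 0.657 CPM in the same order. No member was at 0 in any library. Of the hepatocyte markers, miR-192-5p had 18528 CPM in the parent, 60246 CPM in subclone1 and 69068 CPM in subclone2, whereas the defining hepatocyte miRNA miR-122-5p had only 6.71, 5.32 and 3.94 CPM and both arms of miR-885 were at 0. Markers of blood cells (5, 7 and 7 counts summed over 7 names) and of endothelium (5, 8 and 2 counts over 2 names) were near 0. Muscle markers had 60, 83 and 36 counts over 4 names, almost all miR-1, and fibroblast and smooth muscle markers had 39, 9 and 10 counts over 8 names. The part of these markers in the results was not tested. In such bulk samples fewer cells of a type and less RNA per cell cannot be told apart.

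The 70 members together were a small share of the miRNA counts. They held 8001 parent counts, 4394 subclone1 counts and 4553 subclone2 counts. This was 0.101% of the parent library, or 1012 CPM (95% interval 990 to 1035). It was 1231 CPM (1194 to 1267) in subclone1 and 997 CPM (968 to 1026) in subclone2. On the library total, the summed level was thus highest in subclone1, beyond counting error, and the intervals of the parent and subclone2 overlapped. The order of the parent and subclone2 changed with the total used. The members carried 89.1%, 91.0% and 89.7% of the counts of all names in this number range.

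Single members were mostly scarce. Their summed counts ran from 31 to 1885, 42 of the 70 had fewer than 100, and 20 stayed under 30 in every library. The median of the mean CPM was 4.90 for members and 21.8 for the 264 other names with at least 30 counts. The leading 5 members held 45.2%, 48.3% and 47.0% of the members' counts. Just inside the minimum lay hsa-miR-1180, hsa-miR-3127-5p, hsa-miR-3162-5p and hsa-miR-4667-5p, tied at 31 counts. Just outside lay hsa-miR-3691-5p and hsa-miR-4687-3p with 28 counts each and hsa-miR-2964a-3p with 27.

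The leading members differed between the strains. hsa-miR-4521 led in the parent with 171 CPM, where it was the miRNA of rank 73 among all names. It had 76.7 CPM in subclone1 and 56.9 CPM in subclone2. hsa-miR-1268b led in both subclones, with 157 CPM (rank 76) in subclone1 and 127 CPM (rank 79) in subclone2, against 85.7 CPM in the parent. Ranks across miRNAs compare read counts, and the ligation step of small RNA kits favours some ends over others.

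Both hsa-miR-1268 names and hsa-miR-1269a were highest in subclone1. hsa-miR-1268a, mostly shared with hsa-miR-1268b, had 69.5, 133.6 and 93.5 CPM in the parent, subclone1 and subclone2. hsa-miR-1269a, known as a miRNA raised in liver tumours, had 62.5, 155 and 111 CPM. Its relative hsa-miR-1269b was highest in subclone2 instead, with 29.5, 69.2 and 80.1 CPM. In each of these 4 members the parent was the lowest library and its interval did not overlap those of the subclones.

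hsa-miR-1293, from an intron of the actin regulator gene LIMA1 (chr12:50234142-50234212, minus strand), had 68.97, 44.2 and 40.9 CPM. The parent lay above both subclones. hsa-miR-3660, which lies in no annotated host gene (chr5:90016621-90016720, minus strand), had 54.9, 70.9 and 46.2 CPM. It was highest in subclone1, and the intervals of the parent and subclone2 overlapped.

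The other 3 of the 10 most abundant members had the lowest mean levels of the 10. hsa-miR-1301, from an intron of DNMT3A, a de novo DNA methyltransferase gene, had 34.0, 39.2 and 33.9 CPM, and its intervals overlapped in all libraries. hsa-miR-1246 had 27.1, 40.0 and 29.1 CPM, and its intervals of the parent and subclone1 did not overlap. hsa-miR-1255a, from an intron of the calcineurin gene PPP3CA, had 33.7, 24.6 and 23.0 CPM. Its intervals of the parent and subclone2 did not overlap.

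**Figure D1:**
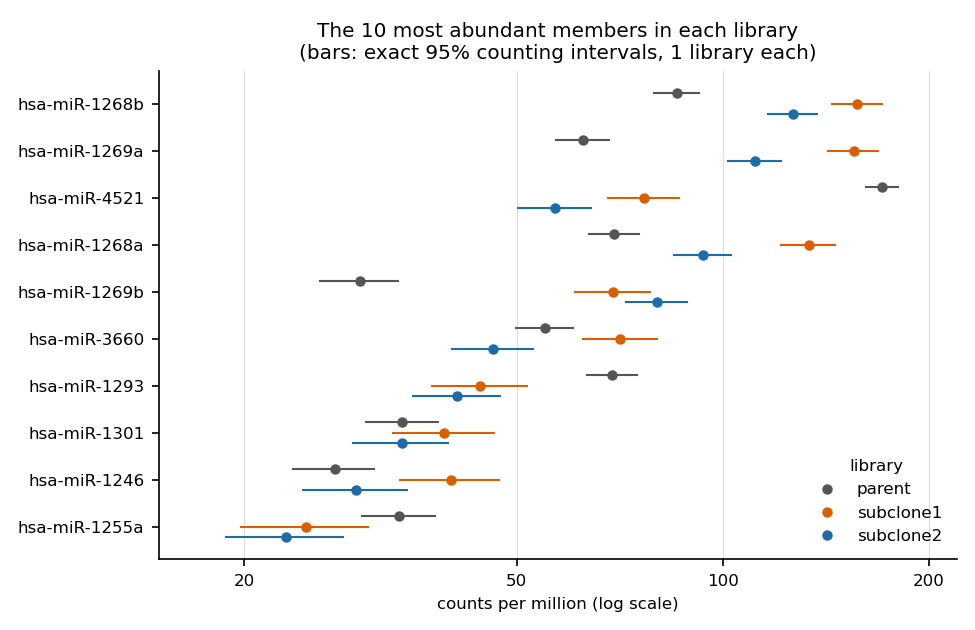
CPM (log scale) of the 10 most abundant members in the parent, subclone1 and subclone2 libraries, 1 library each; points are levels and bars exact 95% counting intervals. hsa-miR-4521 and hsa-miR-1293 are highest in the parent, and the hsa-miR-1268 and hsa-miR-1269 names are lowest there.

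The first comparison asked which members set the strain with lung tropism apart from its parent. Scaling was by the library total, and 0.5 counts were added for the log2 ratio. A miRNA was called when it differed at least 2-fold and the exact 95% interval of the ratio excluded 1. In subclone1, 16 of 70 members (22.9%) were called, against 15% of all 334 names with at least 30 counts. Of these, 10 members were called higher (9.88% of all names) and 6 lower (5.09% of all names). Among the 183 other names within the members' range of summed counts, 16.4% were called. The median log2 ratio was 0.08 for members and 0.00 for all names.

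In subclone2 against the parent, the strain with dual tropism, 18 of 70 members (25.7%) were called, against 15.9% of all names. The 7 higher calls stood beside 6.29% of all names and the 11 lower calls beside 9.58%. Of the other names in the same range of counts, 16.9% were called. The median log2 ratio was -0.12 for members and -0.19 for all names. Both comparisons use the same parent library, so they are not independent of each other.

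Many members could not be resolved at this depth. Against the parent, the interval lay wholly within 2-fold for 13 members in subclone1 and for 21 in subclone2. For 41 and 31 members it reached beyond 2-fold without a call. Fewer than 10 counts were held by 4 members of the parent library, 16 of subclone1 and 17 of subclone2.

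**Figure D2:**
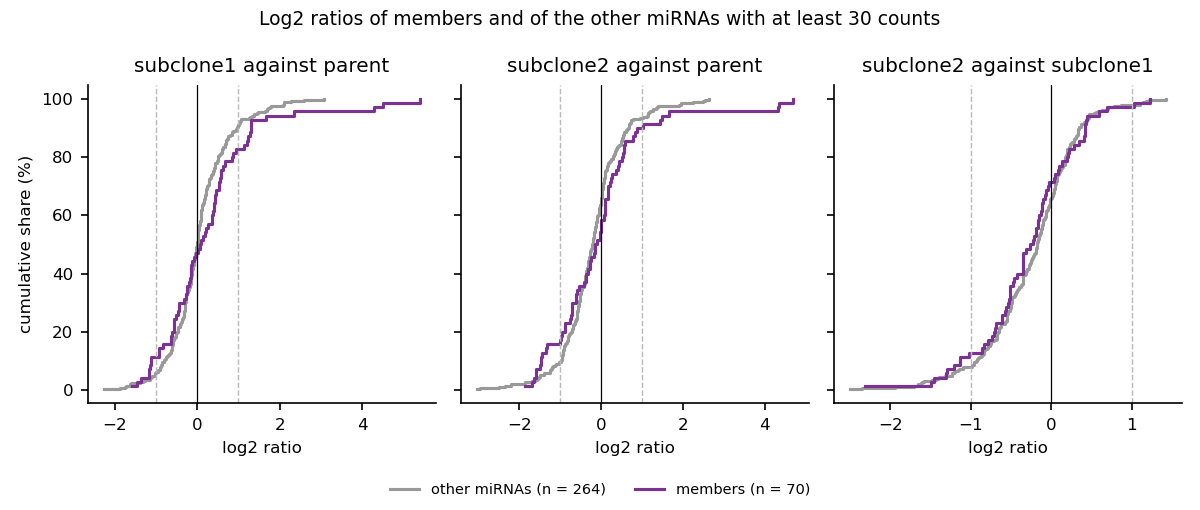
Cumulative share (%) of log2 ratios in the 3 comparisons, for the 70 members (purple) and the 264 other miRNAs with at least 30 counts (grey); dashed lines mark 2-fold. The upper end of the members' curves against the parent, up to 5.39 and 4.70, is hsa-miR-4508, hsa-miR-4488 and hsa-miR-4454, which had 1, 3 and 5 parent counts and reached 30 counts only through the subclones, so it is no contrast with the other names.

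The 24 members called against the parent in at least 1 subclone are described next by their calls, with both ratios side by side. Because both ratios use the same parent library, a call in both subclones is no independent repeat of the first. With the direct comparison of the subclones added, 26 members were called at least once and 44 in no comparison. The share of all names called in any comparison was not computed, nor were the shares called in both subclones or in 1 only. These counts and those of the groups below are therefore no contrast with the other names.

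**Figure D3:**
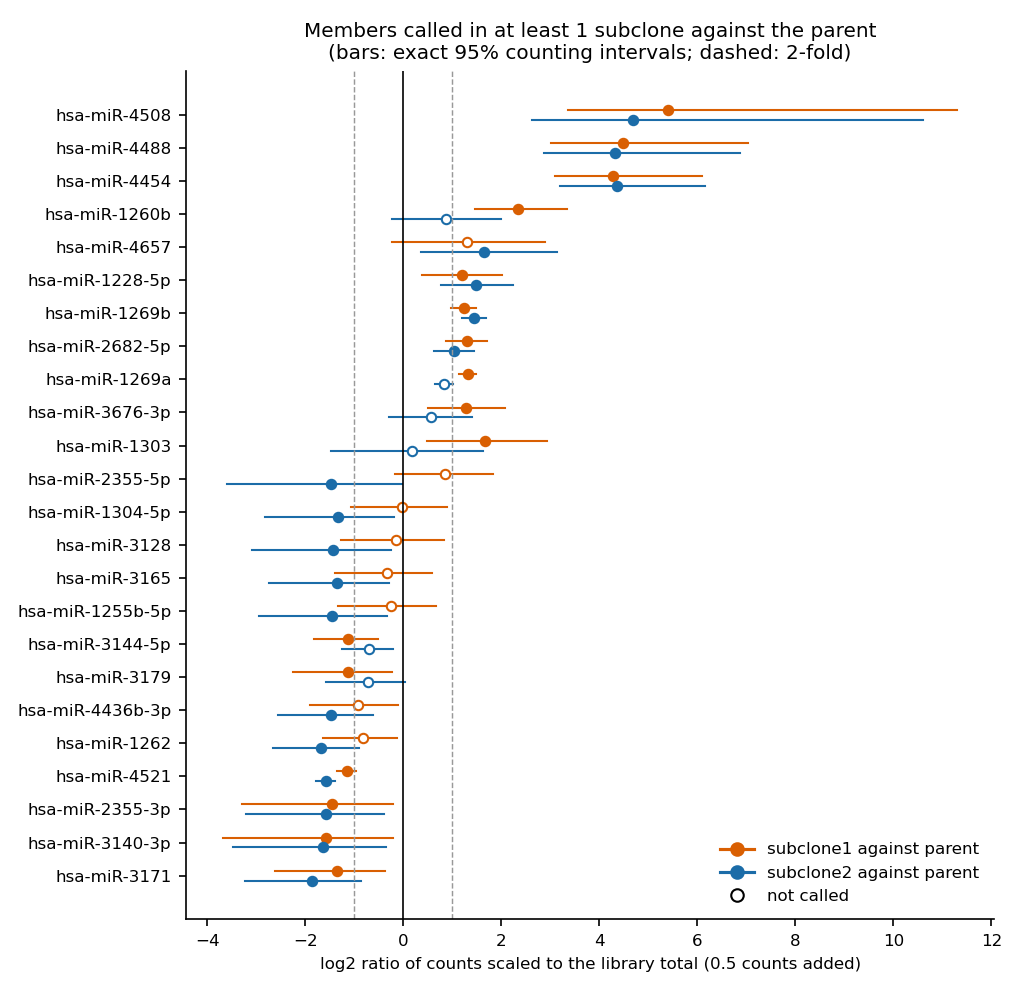
Log2 ratios of the 24 members called in at least 1 subclone against the parent, with exact 95% counting intervals; open points were not called and dashed lines mark 2-fold. hsa-miR-4508, hsa-miR-4488 and hsa-miR-4454 stand apart at the top, with wide intervals since the parent held 1, 3 and 5 counts.

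The members called higher in both subclones included 3 with very few parent counts. hsa-miR-4454 had 5 parent counts, 48 in subclone1 and 65 in subclone2, or 0.633, 13.4 and 14.2 CPM. The log2 ratio was 4.29 (95% interval 3.09 to 6.10) in subclone1 and 4.36 (3.20 to 6.16) in subclone2. Both subclones lay far above the parent and did not differ from each other beyond counting error (log2 0.08, -0.48 to 0.65).

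Another pair of members, named here after their values were seen, had the same shape. hsa-miR-4488 (chr11:61508596-61508657, plus strand, no host gene) had 3, 35 and 40 counts, with log2 ratios of 4.49 (3.02 to 7.04) and 4.32 (2.88 to 6.86). hsa-miR-4508 (chr15:23562062-23562131, minus strand, no host gene) had 1, 28 and 22 counts, with log2 ratios of 5.39 (3.36 to 11.3) and 4.70 (2.62 to 10.6). These 3 members passed the minimum of 30 counts only through the subclones, and the size of their ratios rests on very few parent counts.

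The other 3 were more abundant in the parent. hsa-miR-1269b (chr17:12917268-12917342, minus strand, antisense to ARHGAP44) had 233, 247 and 366 counts. Its log2 ratio was 1.23 (0.97 to 1.49) in subclone1 and 1.44 (1.20 to 1.69) in subclone2. Summed with hsa-miR-1269a, since the names differ by 1 base, the pair had 92.0, 225 and 192 CPM, with log2 ratios of 1.29 (1.14 to 1.43) and 1.06 (0.91 to 1.20), and the sum was called in both subclones. hsa-miR-1269a alone (chr4:66276824-66276928, plus strand, no host gene) was called in subclone1 (1.31, 1.14 to 1.49), while in subclone2 it had 0.83 (0.65 to 1.02).

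hsa-miR-2682-5p lies in an exon of MIR137HG (chr1:98045242-98045351, minus strand), the long non-coding RNA that also hosts miR-137. It had 93, 103 and 110 counts, or 11.8, 28.8 and 24.1 CPM. The log2 ratio was 1.29 (0.87 to 1.71) in subclone1 and 1.03 (0.62 to 1.45) in subclone2. hsa-miR-1228-5p, a mirtron from an intron of LRP1, an endocytic receptor gene, had 27, 28 and 44 counts. Its log2 ratios were 1.20 (0.38 to 2.02) and 1.49 (0.77 to 2.24). The intervals of both members reached below 2-fold in both subclones.

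Some members were called higher in 1 subclone. In subclone1 these were hsa-miR-1269a, hsa-miR-1260b, hsa-miR-1303 and hsa-miR-3676-3p. hsa-miR-1260b had 15 parent counts, 35 in subclone1 and 16 in subclone2, with a log2 ratio of 2.34 (1.46 to 3.35) in subclone1 and 0.88 (-0.23 to 2.0) in subclone2. hsa-miR-3676-3p had 28, 31 and 24 counts, with 1.29 (0.51 to 2.08) and 0.57 (-0.28 to 1.41). In subclone2 only hsa-miR-4657, whose sequence lies in the mRNA of PURB, a nucleic acid-binding protein, was called higher without a call in subclone1. It had 8, 9 and 15 counts, with log2 1.66 (0.37 to 3.14) in subclone2 and 1.31 (-0.23 to 2.89) in subclone1. hsa-miR-4657 reached the minimum of 30 counts only with its subclone2 counts, and hsa-miR-1303 only with its subclone1 counts. The minimum itself therefore favoured the higher calls of both.

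The members called lower in both subclones were led by hsa-miR-4521 (chr17:8186945-8187004, plus strand, no host gene). It had 1351 parent counts, against 274 for subclone1 and 260 for subclone2. The log2 ratio was -1.15 (-1.35 to -0.97) in subclone1 and -1.58 (-1.78 to -1.39) in subclone2. It was the most deeply counted of all members, and its intervals in the 3 libraries did not overlap.

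The other 3 were scarce. hsa-miR-3171, from an intron of a pseudogene on chromosome 14, had 53, 9 and 8 counts, with log2 ratios of -1.35 (-2.62 to -0.38) and -1.86 (-3.22 to -0.86). hsa-miR-2355-3p, from an intron of the transcription factor gene KLF7, had 33, 5 and 6 counts, with -1.46 (-3.29 to -0.21) and -1.57 (-3.21 to -0.40). hsa-miR-3140-3p, from an intron of FBXW7, which encodes the substrate receptor of a ubiquitin ligase, had 29, 4 and 5 counts, with -1.57 (-3.68 to -0.20) and -1.63 (-3.47 to -0.36). In each the parent lay highest, but the intervals reached from nearly no difference to a large one. These 3 members reached the minimum of 30 counts only with the parent counts, so the minimum itself favoured their lower calls.

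Lower calls in subclone1 only were made for hsa-miR-3144-5p and hsa-miR-3179. hsa-miR-3144-5p had 122, 25 and 43 counts, with log2 ratios of -1.12 (-1.82 to -0.51) and -0.70 (-1.25 to -0.20). hsa-miR-3179, which RefSeq places at 4 positions on chromosome 16, had 55, 11 and 19 counts, with -1.12 (-2.26 to -0.23) and -0.72 (-1.58 to 0.03). In subclone2 neither reached 2-fold. Both calls ended when 5 counts were added in place of 0.5 (log2 -0.94 and -0.76), and of the 6 lower calls in subclone1 only 1 was left.

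Lower calls in subclone2 only were made for 7 members. hsa-miR-1262, from an intron of WLS, the gene of a carrier of secreted Wnt ligands, had 80, 20 and 14 counts, with log2 ratios of -0.83 (-1.64 to -0.13) in subclone1 and -1.68 (-2.66 to -0.89) in subclone2. hsa-miR-4436b-3p had 60, 14 and 12 counts, with -0.91 (-1.91 to -0.10) and -1.48 (-2.56 to -0.62). The remaining 5 were hsa-miR-3165, hsa-miR-1255b-5p, hsa-miR-1304-5p, hsa-miR-3128 and hsa-miR-2355-5p, each with 4 to 8 counts in subclone2. They had log2 ratios between -1.32 and -1.47 there. These 5 and hsa-miR-4436b-3p reached the minimum of 30 counts only with the parent counts. hsa-miR-3128 lies in an intron of NFE2L2, the gene of the antioxidant factor NRF2, and hsa-miR-3165 in an intron of NUMA1, a spindle pole gene.

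To compare lung-specific with dual tropism directly, subclone2 was set against subclone1. Here 5 of 70 members (7.14%) were called, close to the 7.19% of all names. None was called higher (0.898% of all names) and 5 were called lower (6.29% of all names). With TMM factors in place of the library total the split became 2 higher and 2 lower (5.71% of members beside 5.69% of all names). With median-of-ratios factors it was 1 and 2 (4.29% beside 5.39%). With the 10 leading miRNAs left out of the total it was 1 and 3 (5.71% beside 6.29%). The median log2 ratio was -0.24 for members and -0.19 for all names, and TMM moved the latter to 0.04. Under the same 3 scalings the median of members stayed negative, at -0.010, -0.029 and -0.099. The split of the calls and the sign of the median of all names therefore change with the scaling.

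The 5 members called lower in subclone2 than in subclone1 were hsa-miR-1254, hsa-miR-4435, hsa-miR-1260b, hsa-miR-1303 and hsa-miR-2355-5p. hsa-miR-1254 had 95 parent counts, 62 in subclone1 and 36 in subclone2, or 12.0, 17.4 and 7.88 CPM. Its log2 ratio was -1.13 (-1.77 to -0.52), and under the 3 other scalings it lay between -0.90 and -0.99, short of 2-fold. hsa-miR-4435, from the long non-coding RNA genes CYTOR and MIR4435-2HG, had 39, 21 and 12 counts, with -1.14 (-2.32 to -0.07). hsa-miR-1260b had -1.46 (-2.44 to -0.59), and hsa-miR-1303, with 11, 16 and 7 counts, -1.49 (-3.07 to -0.19). Only hsa-miR-1254 of these had at least 50 counts in the higher library. hsa-miR-1303 and hsa-miR-2355-5p reached the minimum of 30 counts only with their subclone1 counts, which favoured their lower calls here.

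hsa-miR-1246 and 4 other members belong to a list of names traced to other RNA classes, as background knowledge. The list held 17 names, of which 14 were detected and 5 were members (hsa-miR-1246, hsa-miR-1260b, hsa-miR-1291, hsa-miR-3676-3p and hsa-miR-4454). The listed names summed to 38.2, 79.0 and 60.6 CPM in the parent, subclone1 and subclone2. Against the parent, 3 of the 5 members were called higher in subclone1 (9.88% of all names) and 1 in subclone2 (6.29% of all names), and none lower. A list of 5 is too short to be set apart from these shares. In the transcripts searched, the sequence of hsa-miR-1246 lay whole in 8 U2 spliceosomal RNA genes and pseudogenes and that of hsa-miR-1291 in the small nucleolar RNA SNORA2C. hsa-miR-1260b, hsa-miR-3676-3p and hsa-miR-4454 are linked to tRNAs, and nuclear tRNAs were not among those transcripts. hsa-miR-1291 had 18, 8 and 14 counts and was called in no comparison.

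The Alu-related list, named for the most common short repeat of the human genome, held 11 names, of which 7 were detected and 3 were members. It summed to 46.2, 50.4 and 37.2 CPM. The members were not searched for Alu sequence, so members outside this list may be Alu-related as well. Of its members, hsa-miR-1303 was called higher in subclone1, hsa-miR-1254 and hsa-miR-1303 were lower in subclone2 than in subclone1, and hsa-miR-1285-3p, with 237, 94 and 114 counts, was not called. Of 15 listed mirtron names 4 were detected and 1, hsa-miR-1228-5p, was a member. The hairpins opposite an older miRNA (6 names, 9, 11 and 11 counts) and those of the clusters on chromosomes 14 and 19 (9 names, 1 count in each library) gave no member.

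The positions of 67 members were found in RefSeq, as the hairpin or, where RefSeq lists none, as the mature interval, and 51 of them lay in a gene on the same strand. By the annotation, 18 lay in an exon, 33 in an intron, 4 antisense to a gene and 12 outside any gene. Exonic members included hsa-miR-1306-3p in the mRNA of DGCR8, the Microprocessor subunit named above, hsa-miR-3615 in SLC9A3R1, hsa-miR-4745-5p in the splicing factor gene PTBP1, and hsa-miR-4467 and hsa-miR-5090 in LRWD1. hsa-miR-1306-3p had 79, 23 and 45 counts, or 9.997, 6.44 and 9.85 CPM, with overlapping intervals. The hairpins of hsa-miR-4467 and hsa-miR-5090 lay 5.64 kb apart and those of hsa-miR-3187-3p and hsa-miR-4745-5p 8.58 kb apart. Reads from such exons and from the miRNA cannot be told apart in the tables.

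Base composition varied widely among the members and moved with the ratios. The share of G and C bases (GC) had a median of 53.2% in 58 members and 47.6% in 222 other names, and ranged from 12.5% (hsa-miR-1277-5p) to 88.9% (hsa-miR-4488). Members called higher in subclone1 had a median GC of 61.4% (8 members with a sequence) and those called lower 40.9% (6). In subclone2 the medians were 62.0% (6) and 42.9% (11). Among the other names the medians of higher and lower calls were 52.4% and 44.5% in subclone1 and 51.2% and 43.5% in subclone2.

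The same held as a trend across the members. In subclone2 the 23 members under 50% GC had a median log2 ratio of -0.72 and the 35 at 50% or more 0.10, while in subclone1 these were -0.25 and 0.15. Across the 58 members Pearson's r of GC with the log2 ratio was 0.48 in subclone1 and 0.57 in subclone2, with Spearman's rho 0.45 and 0.59. Among the 34 members with at least 10 counts in every library, r was 0.48 and 0.55. Among the 21 with at least 100 counts it was lower, 0.35 and 0.41. In the 150 other names within the members' range of counts r was 0.35 and 0.34. These are descriptions across miRNAs that share the same 3 libraries, their depths and the parent in both ratios. Subclone2 against subclone1 gave an r of 0.20 in members. The part of library preparation in this relation was not tested.

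**Figure D4:**
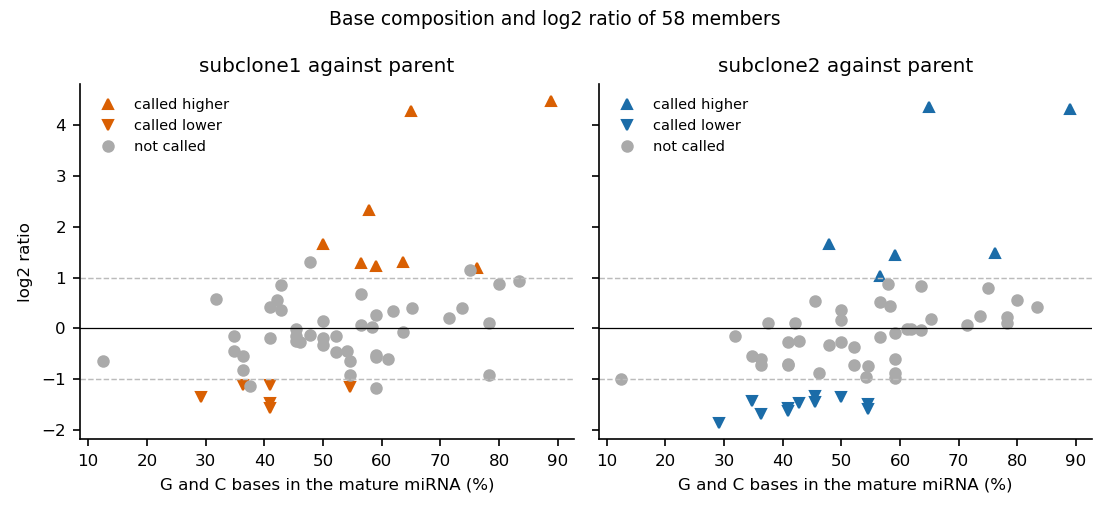
Log2 ratio against GC (%) of the mature sequence for 58 members, in subclone1 (left) and subclone2 (right) against the parent; triangles are called members, grey points those not called, and dashed lines mark 2-fold. Higher calls lie at 47.8% GC or more and lower calls at 54.5% or less.

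For 23 hairpins with at least 1 member, both arms were listed. The 5p arm was the more abundant in 12 and the 3p arm in 11. In 18 hairpins the major arm held at least 90% of the counts, and in 9 the minor arm was at 0. Both arms were members only for hsa-miR-1277 and hsa-miR-2355.

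hsa-miR-1277, from an intron of WDR44, kept mostly its 3p arm. The 5p arm held 34.8% (26.8 to 43.6) of its parent counts, 18.8% (10.4 to 30.1) for subclone1 and 20.6% (11.5 to 32.7) for subclone2. The subclones lay below the parent, with overlapping intervals. For hsa-miR-2355 the 5p share was 38.9% (25.9 to 53.1) for the parent, 77.3% (54.6 to 92.2) for subclone1 and 40.0% (12.2 to 73.8) for subclone2. In counts, the 5p and 3p arms had 21 and 33 in the parent, 17 and 5 in subclone1, and 4 and 6 in subclone2. The intervals of the parent and subclone1 did not overlap, which rests on 22 counts in subclone1. hsa-miR-2355-5p was accordingly lower in subclone2 than in subclone1 (log2 -2.31, -4.47 to -0.83).

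The remaining hairpins kept the same major arm in every library. hsa-miR-1285 had a 5p share of 2.07%, 3.09% and 2.56%, and hsa-miR-1306 one of 12.2%, 11.5% and 11.8%. hsa-miR-2682 had 98.9%, 98.1% and 100%, and hsa-miR-3144 89.7%, 86.2% and 91.5%. Within each of these 4 hairpins all intervals overlapped.

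**Figure D5:**
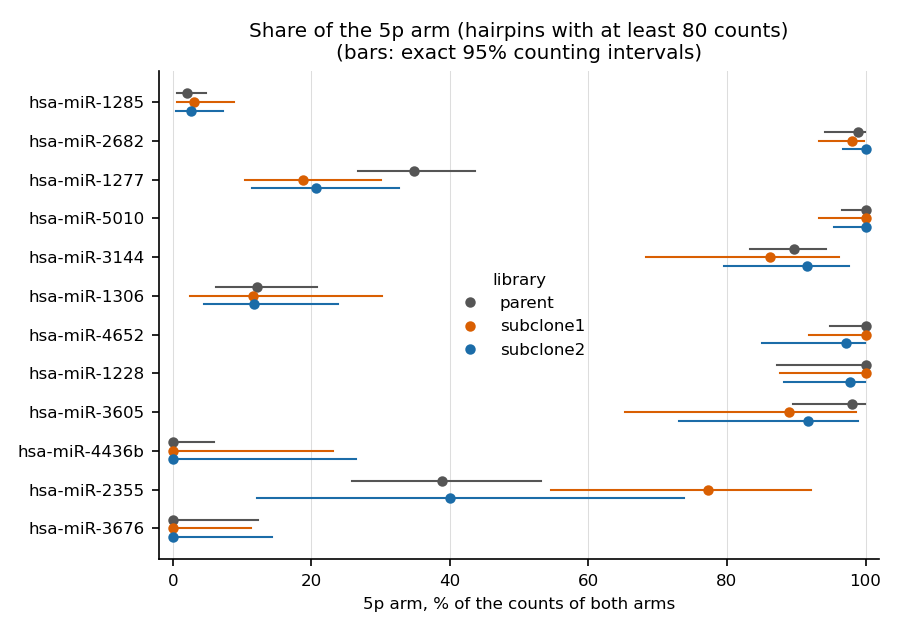
Share of the 5p arm (% of the counts of both arms) in 12 hairpins with at least 80 counts, in the parent, subclone1 and subclone2 libraries, with exact 95% counting intervals. Most hairpins sit near 0% or 100% in every library, while hsa-miR-1277 and hsa-miR-2355 lie between, the former with overlapping intervals and the latter with those of the parent and subclone1 apart.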

How the data were processed

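Small RNA libraries of 3 HCCLM3 strains were made with the Illumina TruSeq Small RNA kit from 1 ug of total RNA. The authors deposited unscaled read counts for 1921 mature miRNA names per library. The submitters' processing notes name CASAVA 1.4 and hg19. The aligner, trimming, miRBase release and treatment of reads that match several names are not given in the sources used here, and they decide the split between near-identical members. The 3 totals set the precision, given with the levels.

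Groups were taken from the labels. The members, lists, naming rule and thresholds were chosen with earlier results of these data known. Named were the 10 members of highest mean CPM, up to 5 called members per direction and comparison reaching 50 counts in either library, the names at the minimum, hairpins with both arms listed, members of shared seeds or lists, and members within other annotated RNAs. Members outside this rule (hsa-miR-4488, hsa-miR-4508, hsa-miR-3140-3p, hsa-miR-3165 and hsa-miR-3128) were named after their values were seen. Ratios, calls and intervals were computed on all 334 names with at least 30 counts (Python 3.11.15, scipy 1.17.1), and TMM factors with edgeR 4.0.16. The procedure was tested on simulated data. Sequences and positions came from RefSeq (GRCh38.p14), hosts and transcripts from GENCODE release 29 (GRCh38). Positions are those of the annotation, not of the tables.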

Additional observations from a re-analysis of the deposited data

Results flagged for a closer look

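For 2 members the interval against the parent excluded 1 on opposite sides in the 2 subclones, neither ratio reaching 2-fold. hsa-miR-1254 had a log2 ratio of 0.53 (0.04 to 1.01) in subclone1 and -0.60 (-1.21 to -0.04) in subclone2, and subclone2 lay at -1.13 against subclone1. hsa-miR-3660 had 0.37 (0.14 to 0.59) and -0.25 (-0.49 to -0.01), and subclone2 lay at -0.62 (-0.89 to -0.35) against subclone1. With 1 library per group these differences were not tested.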

How the results depend on the processing

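Fewer calls came with higher minimums. With a mean of at least 10 CPM (23 members) 5, 3 and 1 members were called in subclone1 and subclone2 against the parent and subclone2 against subclone1, against 16, 18 and 5. Against the parent these were 21.7% and 13% of members, beside 13% and 10.4% of all 192 names at that minimum. Between the subclones the shares were 4.35% and 5.73%. With at least 100 counts (28 members) there were 6, 5 and 1. These were 21.4%, 17.9% and 3.57% of members beside 13.6%, 12.6% and 6.07% of 214 names. At a fold threshold of 4 there were 4, 3 and 1. These were 5.71%, 4.29% and 1.43% of members beside 3.29%, 3.59% and 0.898% of all names. With no minimum, 23 of 355 members (6.48%) were called in subclone1 against the parent, beside 8.12% of 825 names. In subclone2 against the parent 31 were called (8.42%, beside 9.07% of all names), and between the subclones 10 (2.98%, beside 4.23%). The higher share of calls in members than in all names was thus not seen without the minimum. Between the subclones, a fold threshold of 1.5 gave 8 calls (11.4% of members beside 15% of all names). Median-of-ratios factors gave 3 between them (4.29% beside 5.39%). With 5 counts added, 11 were called in each subclone against the parent, or 15.7% of members beside 12.3% and 12% of all names, split 10 higher and 1 lower in subclone1.

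A median was read as moved at a change of 0.1. In subclone1 against the parent it was 0.21 with the minimum of 10 CPM, 0.29 with 100 counts, -0.076 with no minimum and 0.24 with 5 counts added. In subclone2 against the parent it was 0.055 with TMM, 0.032 with median-of-ratios and 0.012 with 5 counts added, and TMM moved the median of all names from -0.19 to -0.02. Between the subclones it was -0.010, -0.029 and -0.099 with TMM, median-of-ratios and the total without the 10 most abundant miRNAs.

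The summed level was 927, 1073 and 870 CPM without hsa-miR-1268b, the member of highest mean CPM. It was 977, 1156 and 942 CPM without members within another RNA class (an alternative chosen after seeing the data). Of the total without the 10 most abundant miRNAs it was 8617, 9963 and 8917 CPM. Subclone1 was highest in each. Subclone2 lay below the parent in each but the last, where it lay above. TMM and median-of-ratios factors were not applied to the summed level, so its order under them was not tested.

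Of 216 alternative values of 18 named members, no called ratio changed sign, while 12 values of the uncalled hsa-miR-1255a, hsa-miR-1293 and hsa-miR-1301 did, all between -0.21 and 0.17. A further 6 fell short of the call and 7 that were not called moved beyond their counting interval. hsa-miR-3144-5p, hsa-miR-3171 and hsa-miR-3179 did so in subclone1 with 5 counts added and hsa-miR-1254 under the 3 scalings. hsa-miR-1269a reached 1.00 in subclone2 with TMM. Summing near-identical members, also chosen after seeing the data, gave 15, 17 and 5 calls, with no share of all names computed for this setting. The cause of these changes was not tested.

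No paired analysis was possible because there was 1 library per group, which also barred leaving a library out. The restriction to members with at most 1 perfect genome match was not run, since no genome sequence was used here. Depth limits the members under 10 counts in a library most.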
